A study of Mus musculus with 6 samples.

Results

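The mRNAs examined here were 10 genes of the circadian clock, Per1, Per2, Per3, Cry1, Cry2, Arntl (also named Bmal1), Nr1d1, Nr1d2, Dbp and Ciart, out of 21006 genes in the prefrontal cortex of aged mice. They were chosen by name, through the Ensembl identifier that carries each symbol, and all 10 had 1 row each in the data. The question was whether clock genes that peak at opposite times of day differed between the groups, gene by gene. All 6 animals were wild type male C57BL/6 mice, 18 months old by their age label (their titles read 17M), kept with the lights on from 7 to 19 h. Mice of the PND group (postoperative neurocognitive disorder, n = 3) breathed 1.5% isoflurane for 30 min and then had an exploratory laparotomy (opening and inspection of the abdomen) of 30 min under isoflurane. Mice of the CON group (n = 3) had neither anesthesia nor operation, so anesthesia and surgery cannot be told apart in this design. In both groups the brain was taken under deep isoflurane anesthesia, shortly after the last session of a Barnes maze, a spatial memory test held in the days after the operation. The clock hour of collection was not given in the sources used here, so it is not known at which phase of the day each animal was sampled.

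The circadian clock of mammalian cells is a loop of transcription and feedback. CLOCK (or NPAS2) and ARNTL bind E-box sequences as a pair and switch on the genes for PER and CRY proteins, which return to the nucleus and repress that pair. The same pair drives Nr1d1 and Nr1d2 (REV-ERB alpha and beta), nuclear receptors that shut off Arntl through ROR response elements, so that Arntl mRNA runs opposite in phase to its targets. Dbp, a PAR bZIP transcription factor that acts on D-box sequences, and Ciart, a repressor of the CLOCK and ARNTL pair, are also E-box targets. In nocturnal rodents the Per, Nr1d, Dbp and Ciart mRNAs peak in the course of the day and evening, Arntl peaks around the end of the night, and Cry1 lags behind the Per genes. Cry2 has a shallow rhythm. Accordingly, Per1, Per2, Per3, Cry2, Nr1d1, Nr1d2, Dbp and Ciart were grouped as the 8 evening-phase genes, and Arntl and Cry1 as the 2 Arntl-phase genes. A transcript of this loop can vary from one hour to the next, and cortical cells run the loop as well as the central clock in the hypothalamus.

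The promoters of 5 genes are shown because they hold, or lack, the elements through which this loop acts. The RefSeq promoter windows of GRCm38.p6 run from 250 bases before the start of transcription to 50 bases after it, and 9 of the 10 genes (all but Per2) had an entry. Ciart is shown as the gene whose groups were separated (this choice was made after its values were seen), Per1, Nr1d1 and Dbp as E-box targets, and Arntl for the opposite phase. Capitals mark matches to the motifs searched on both strands.
Ciart, chr3:95882179-95882478, minus strand: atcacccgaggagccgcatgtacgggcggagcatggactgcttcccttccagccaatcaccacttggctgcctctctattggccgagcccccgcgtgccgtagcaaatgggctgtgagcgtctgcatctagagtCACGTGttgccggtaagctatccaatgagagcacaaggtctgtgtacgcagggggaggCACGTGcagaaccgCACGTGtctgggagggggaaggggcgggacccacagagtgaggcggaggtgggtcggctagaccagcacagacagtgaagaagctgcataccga
Per1, chr11:69098699-69098998, plus strand: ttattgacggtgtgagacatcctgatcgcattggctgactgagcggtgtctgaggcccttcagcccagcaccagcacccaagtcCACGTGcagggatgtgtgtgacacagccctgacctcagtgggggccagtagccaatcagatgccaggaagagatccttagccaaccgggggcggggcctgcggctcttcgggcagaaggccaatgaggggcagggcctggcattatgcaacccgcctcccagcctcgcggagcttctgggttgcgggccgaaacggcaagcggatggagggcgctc
Nr1d1, chr11:98775328-98775627, minus strand: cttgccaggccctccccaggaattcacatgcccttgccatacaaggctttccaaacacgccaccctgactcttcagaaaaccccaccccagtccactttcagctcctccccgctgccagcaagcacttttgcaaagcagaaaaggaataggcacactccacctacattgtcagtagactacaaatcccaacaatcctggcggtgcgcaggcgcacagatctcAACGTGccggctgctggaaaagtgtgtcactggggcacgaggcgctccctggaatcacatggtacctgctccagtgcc
Arntl, chr7:113207261-113207560, plus strand: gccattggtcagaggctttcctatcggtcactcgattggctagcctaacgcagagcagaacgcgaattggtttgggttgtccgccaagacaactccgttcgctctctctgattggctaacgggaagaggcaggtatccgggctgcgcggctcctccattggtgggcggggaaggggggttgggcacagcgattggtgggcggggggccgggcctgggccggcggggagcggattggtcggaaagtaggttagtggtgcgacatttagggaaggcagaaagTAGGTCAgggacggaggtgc
Dbp, chr7:45704997-45705296, plus strand: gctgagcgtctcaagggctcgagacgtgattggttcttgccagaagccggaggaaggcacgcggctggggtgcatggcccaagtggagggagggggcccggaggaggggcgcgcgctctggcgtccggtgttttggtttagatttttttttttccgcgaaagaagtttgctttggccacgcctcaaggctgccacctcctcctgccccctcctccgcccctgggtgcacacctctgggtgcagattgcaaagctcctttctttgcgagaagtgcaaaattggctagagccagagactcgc
The E-box CACGTG was found 3 times in the Ciart window, at -116 to -111, -58 to -53 and -44 to -39 from the start, and once each in Per1 (-166 to -161) and Cry1 (-60 to -55). This made 3 of the 9 genes, which had 11 windows between them. The motif was present in 7.15% of 32817 promoter windows of the same length, a share per window and not per gene. The variant CACGTT was found, read on the opposite strand, in Nr1d1 (-28 to -23), Cry2 (-166 to -161) and Cry1 (-79 to -74), against 4.69% of all windows. The D-box TTATGTAA occurred 2 times in Per3 (-205 to -198 and -158 to -151), against 0.935% of all windows, and the ROR element core TAGGTCA occurred at 31 to 37 in the second of 2 overlapping windows of Arntl, against 2.61%. No match was found to TTACGTAA (0.119% of all windows), TGGGTCA (3.98%) or the cyclic AMP element TGACGTCA (1.79%). No match overlapped another. The windows of Dbp and Nr1d2 and the second window of Per1 held none of these letters, which says nothing about elements elsewhere in these genes.

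Levels are given as FPKM, in which the fragments of a gene are divided by its exon length and by the depth of the sample. The sum of FPKM per sample ranged from 215640 to 240447, and the depth estimated from steps in the low values was 7211275 to 9383331 fragments per sample. Neuronal markers summed to between 625 and 747 FPKM in the 6 samples, those of astrocytes to between 163 and 182, of oligodendrocytes to between 211 and 272, of microglia to between 17.8 and 29.6, of endothelium to between 19.8 and 27.4 and of the cortical layers to between 20.0 and 37.4, and each of these sums overlapped between groups. Of the 5 choroid plexus markers the sum was 2.53 to 3.31 FPKM in PND and 1.48 to 2.81 in CON, with Ttr, its defining transcript, listed at 0 in 3 samples and at no more than 0.207 FPKM. Striatal markers summed to 38.6 to 80.1 FPKM and the 2 haemoglobin genes to at most 2.06 FPKM. Markers of the suprachiasmatic nucleus, the central clock, were near 0 with the exception of Vip, a peptide of cortical interneurons too (18.0 to 25.6 FPKM). Its other 3 markers with a row, Prok2, Nms and Lhx1, were at no more than 0.503 FPKM. In bulk tissue, fewer cells of a type and less RNA per cell cannot be told apart.

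Every clock gene passed the filter on low values. Nr1d2 had the highest level of the 10 in all 6 samples, Arntl the second highest in all 6, and Ciart the lowest in all 6. The means over the 6 samples were 44.6 FPKM for Nr1d2, 11.3 for Arntl, 8.69 for Per2, 7.80 for Cry2, 7.77 for Nr1d1, 5.83 for Cry1, 5.25 for Dbp, 5.22 for Per3, 3.27 for Per1 and 2.19 for Ciart. The neighbours from Per2 to Nr1d1 and from Cry1 to Per3 differed by less than the SDs of Nr1d1 and Dbp within a group. At these levels a gene was read by an estimated 24.0 (Ciart, CON replicate 1) to 2150 fragments (Nr1d2, PND replicate 1) in a sample.

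Among the 10 clock genes the PND and CON samples overlapped for 9, and Ciart was the exception, higher in the PND group. Groups were apart in either direction for 7.66% of the 18185 genes tested, and no clock gene had all PND samples below all CON samples (0 of 10, against 3.88%). With limma on log2(FPKM + 0.1), an unadjusted p below 0.05 was found for 1 of the 10 genes (Ciart), against 3.13% of all genes tested. None (0) passed the study's cut-off of an absolute log2 fold change above 1 with an unadjusted p below 0.05, against 1.33% of all genes tested. None (0) of the 10 had an adjusted p below 0.05 (limma with Benjamini-Hochberg), against 0.011% of all genes tested. Among the 10 genes 7 had a log2 fold change above 0, against 52.4% of all genes tested, and this number was 3 without CON replicate 1. The median log2 fold change was 0.07 for the 10 genes and 0.01 for all genes tested. For the 10 genes it was -0.0049 without CON replicate 1, 0.0034 without CON replicate 3, 0.024 without PND replicate 3, 0.27 without PND replicate 2, 0.28 without CON replicate 2 and 0.023 with GC correction.

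**Figure D1:**
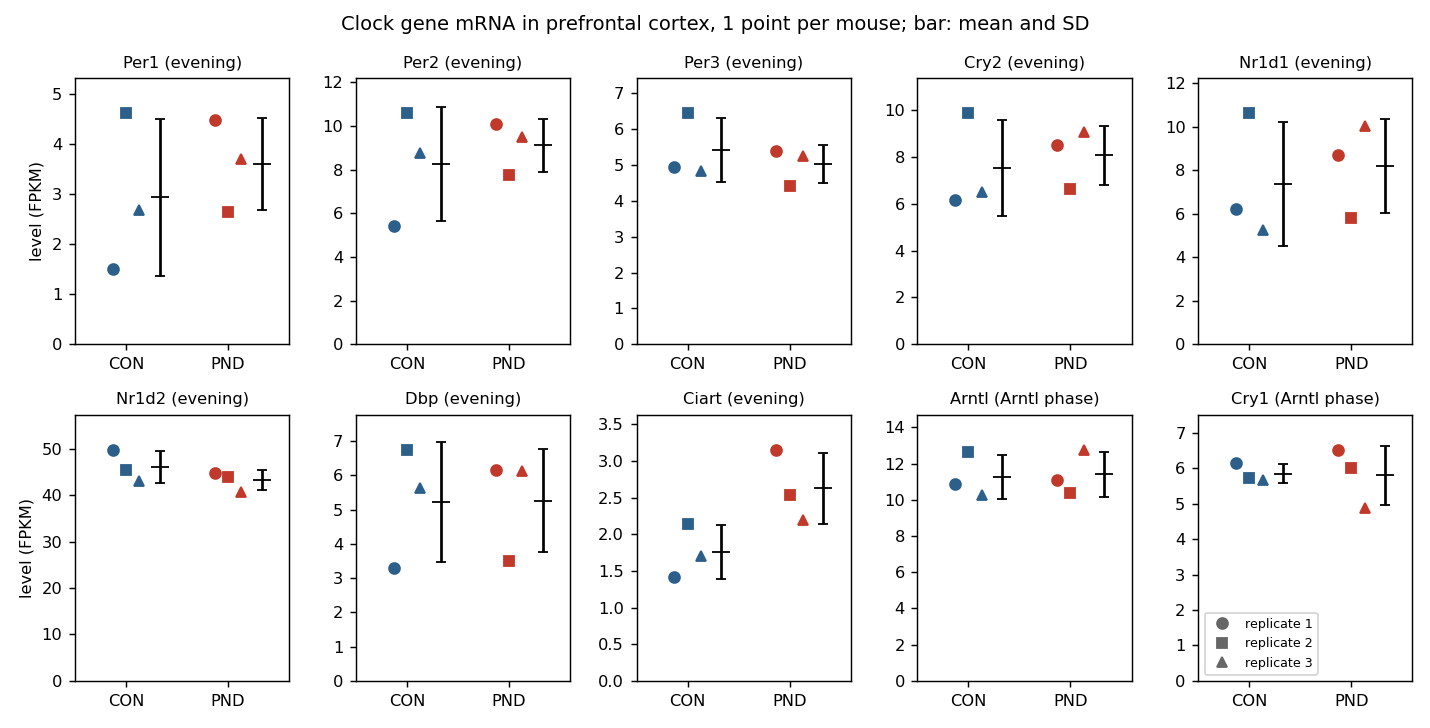
Levels (FPKM, linear axes from 0) of the 10 clock genes in CON (blue) and PND (red), 1 point per mouse with the replicate number as its shape, and beside them the mean and SD (n = 3). The groups overlap in 9 panels, and in the Ciart panel the 3 PND mice (2.19 to 3.15) lie above the 3 CON mice (1.42 to 2.15).

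Ciart (also known as Chrono; ENSMUSG00000038550, chromosome 3, 95878503 to 95882251 in GRCm38, minus strand) was measured at 3.15, 2.54 and 2.19 FPKM in PND replicates 1 to 3 and at 1.42, 2.15 and 1.71 FPKM in CON replicates 1 to 3. The lowest PND sample lay just above the highest CON sample, at 2.19 against 2.15 FPKM. The PND mice averaged 2.63 ± 0.487 FPKM and the CON mice 1.76 ± 0.366 FPKM (SD, n = 3 each). The log2 fold change of Ciart was 0.56 (SE 0.23, 95% interval 0.01 to 1.10), and limma gave 0.0455 as its unadjusted p and 0.9999 after adjustment over all genes. Groups fully apart with PND higher were found for 3.78% of all genes tested, and Ciart was at place 506 by p. The level rested on an estimated 45.3 to 63.1 fragments in the PND samples and 24.0 to 39.5 in the CON samples. The unadjusted p stayed below 0.05 under 10 of the 17 alternatives and ranged from 0.0221 (without CON replicate 2) to 0.162 (without PND replicate 1). It also passed 0.05 without PND replicate 2 (0.0858), without CON replicate 1 (0.1202), without CON replicate 3 (0.0975), with the replicate number as a block (0.0946), with that block and GC correction (0.0553) and with no filter on low values (0.0501). The log2 fold change was 0.40 to 0.70 in all of them.

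The Per genes, which encode the repressors that accumulate towards night, did not pass the test. Per1 (ENSMUSG00000020893, chromosome 11, 69095217 to 69109960, plus strand) was at 4.47, 2.63 and 3.70 FPKM in PND and at 1.50, 4.62 and 2.69 FPKM in CON. The highest and the lowest level were thus both found in CON mice, 3.08-fold apart. The log2 fold change of Per1 was 0.39 with an interval of -0.54 to 1.32 (limma unadjusted p 0.357). It was -0.0033 without CON replicate 1 and 0.78 without CON replicate 2. Per2 (ENSMUSG00000055866, chromosome 1, 91415982 to 91459324, minus strand) was at 10.1, 7.77 and 9.48 FPKM in PND and at 5.42, 10.6 and 8.78 FPKM in CON. PND exceeded CON by 0.18 on the log2 scale (-0.40 to 0.77, limma unadjusted p 0.486), and again CON replicates 1 and 2 were the ends of the range. Per3 (ENSMUSG00000028957, chromosome 4, 151003652 to 151044665, minus strand), which is less central to the loop than Per1 and Per2, was at 5.39, 4.42 and 5.26 FPKM in PND and at 4.95, 6.45 and 4.85 FPKM in CON. The difference on the log2 scale was -0.10 (-0.50 to 0.30, limma unadjusted p 0.580). The interval of Per3 is the narrowest of the 3 and leaves room for a change of up to 1.23-fold higher or 0.707-fold lower. That of Per1 spans 0.688-fold to 2.49-fold.

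Cry2, the partner of the PER proteins with the shallow rhythm (ENSMUSG00000068742, chromosome 2, 92403646 to 92434043, minus strand), was at 8.50, 6.65 and 9.07 FPKM in PND and at 6.19, 9.88 and 6.53 FPKM in CON. The groups overlapped fully, with PND inside the range of CON (log2 fold change 0.12, interval -0.39 to 0.63, limma unadjusted p 0.599).

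The REV-ERB receptor genes, repressors of Arntl, were next compared. Nr1d1 (ENSMUSG00000020889, chromosome 11, 98767932 to 98775333, minus strand) was at 8.68, 5.81 and 10.04 FPKM in PND and at 6.21, 10.6 and 5.24 FPKM in CON. The log2 fold change was 0.18 (-0.53 to 0.89, limma unadjusted p 0.568), and CON mice differed from each other by up to 2.03-fold. Over 263 bases its exons overlap those of Thra on the opposite strand, a gene at a mean of 26.1 FPKM, and it was not stated whether the counting used strand. Nr1d2 (ENSMUSG00000021775, chromosome 14, 18204054 to 18239127, minus strand) was at 44.9, 43.9 and 40.8 FPKM in PND and at 49.8, 45.4 and 43.0 FPKM in CON. It varied least of the 8 evening-phase genes, by 1.16-fold among CON and 1.10-fold among PND mice. The log2 fold change of Nr1d2 was -0.09 with an interval of -0.33 to 0.15 (limma unadjusted p 0.398), which corresponds to 0.796-fold to 1.11-fold.

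Dbp, an output gene of high amplitude in many tissues (ENSMUSG00000059824, chromosome 7, 45705088 to 45710203, plus strand), was at 6.15, 3.52 and 6.13 FPKM in PND and at 3.31, 6.75 and 5.63 FPKM in CON. In each group 1 mouse was low, PND replicate 2 and CON replicate 1, at 3.52 and 3.31 FPKM. The means were 5.27 ± 1.52 and 5.23 ± 1.75 FPKM (SD, n = 3), with a log2 fold change of 0.02 (-0.73 to 0.78, limma unadjusted p 0.942). The sign of this difference turned with GC correction, to -0.089. Of its exon length, 18.0% (539 bases) overlaps Sphk2 on the opposite strand, which had a mean of 0.793 FPKM.

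On the opposite phase, Arntl (ENSMUSG00000055116, chromosome 7, 113207465 to 113314126, plus strand), the activator of the loop, was at 11.1, 10.4 and 12.8 FPKM in PND and at 10.9, 12.6 and 10.3 FPKM in CON. The means were 11.4 ± 1.23 and 11.3 ± 1.22 FPKM (SD, n = 3), and the log2 fold change was 0.02 (-0.31 to 0.34, limma unadjusted p 0.905). Cry1, the repressor that lags the Per genes (ENSMUSG00000020038, chromosome 10, 85131700 to 85185064, minus strand), was at 6.53, 6.00 and 4.88 FPKM in PND and at 6.15, 5.74 and 5.67 FPKM in CON. PND minus CON was -0.02 on the log2 scale (-0.38 to 0.34, limma unadjusted p 0.887), and PND replicates 1 and 3 were the ends of its range. For Arntl and Cry1 the intervals extend to 0.767-fold on the lower side and 1.27-fold on the upper side.

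**Figure D2:**
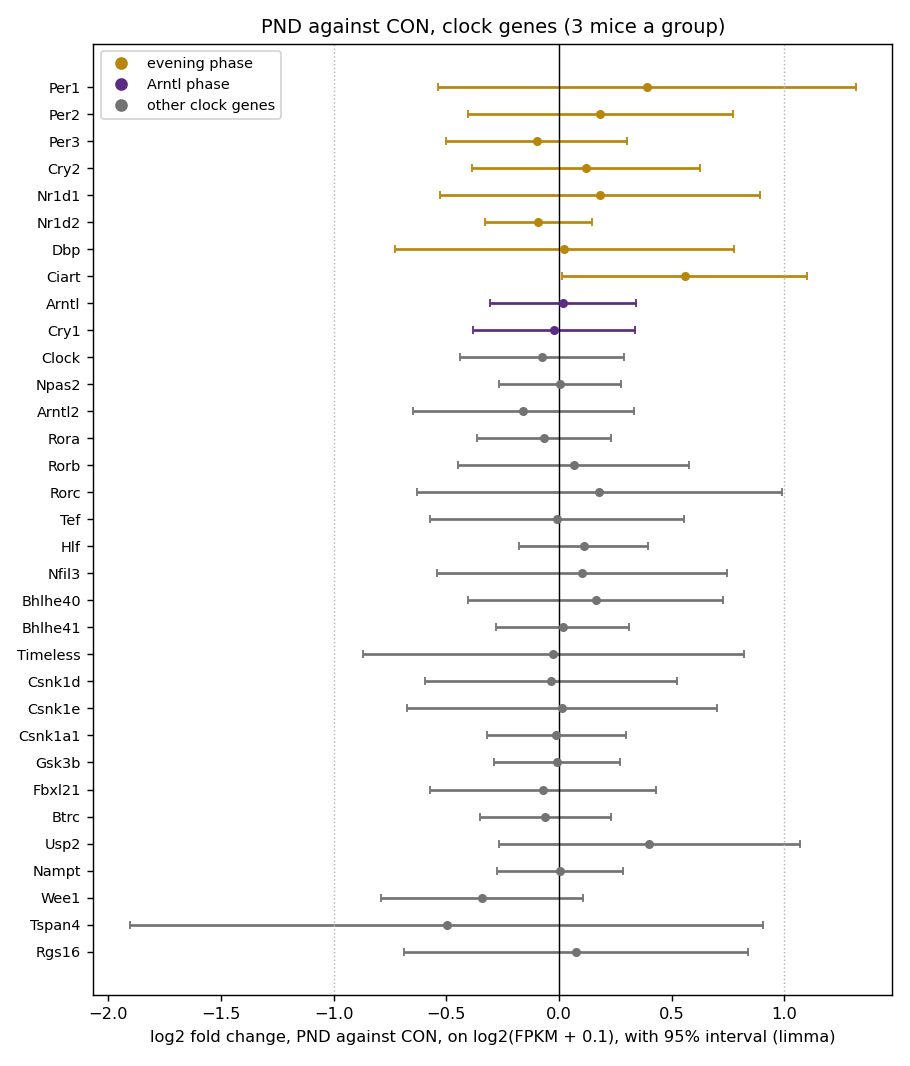
Log2 fold changes of PND against CON with their 95% intervals (limma, log2(FPKM + 0.1) scale) for the 8 evening-phase genes, the 2 Arntl-phase genes and 23 other clock genes, with dotted lines at an absolute log2 fold change of 1. The interval of Ciart (0.01 to 1.10) lies above 0, and those of all other genes shown include 0.

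The phases were then set against each other within each mouse, which removes differences in total depth. The mean log2(FPKM + 0.1) of the 8 evening-phase genes was 3.01, 2.58 and 2.92 in PND replicates 1 to 3 and 2.35, 3.07 and 2.61 in CON replicates 1 to 3. That of Arntl and Cry1 was 3.11, 3.00 and 3.00 in PND and 3.05, 3.11 and 2.95 in CON. The Arntl-phase mean thus stayed within a span of 2.95 to 3.11 in the 6 mice, and the evening-phase mean ran from 2.35 to 3.07, with both ends in the CON group. After GC correction, described further on, the spans were 2.92 to 3.17 and 2.64 to 2.93. Arntl and Cry1 did not move together in every mouse, so their mean can hide opposite deviations. In PND replicate 3 Arntl was at 0.17 and Cry1 at -0.25 from their gene means (0.14 and -0.38 after GC correction). In CON replicate 3 both lay below (-0.13 and -0.03). The evening-phase mean minus the Arntl-phase mean was -0.10, -0.42 and -0.08 in PND and -0.70, -0.04 and -0.34 in CON. It averaged -0.20 ± 0.190 in PND and -0.36 ± 0.332 in CON (SD, n = 3), a difference of 0.16 on the log2 scale that is smaller than either SD. The groups overlapped. Without CON replicate 1 this difference was -0.0091, and without CON replicate 2 it was 0.32. With Arntl alone set against the 7 evening-phase genes other than Cry2 it was 0.15, and with Clock, Npas2 and Nfil3 added to the Arntl phase it was also 0.15.

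**Figure D3:**
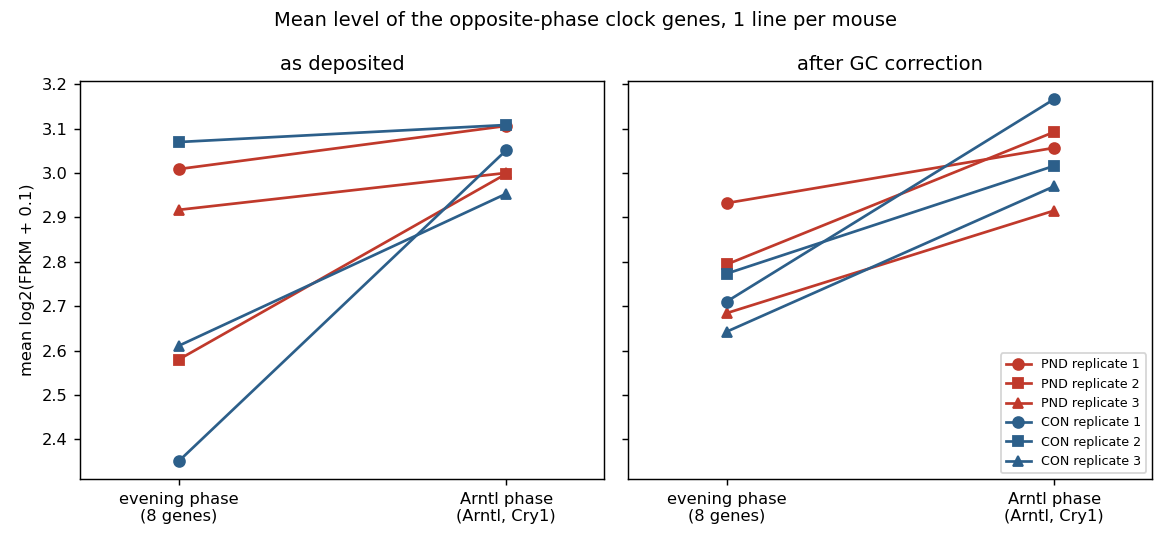
Mean log2(FPKM + 0.1) of the 8 evening-phase genes and of Arntl and Cry1, joined by a line for each mouse, as deposited (left) and after GC correction (right). On the left the evening-phase means span 2.35 to 3.07 and on the right 2.64 to 2.93, with PND (red) and CON (blue) mixed in both.

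Among the evening-phase genes, the ends of the range were often found in the same CON mice. CON replicate 2 was the highest of the 6 samples for 6 of the 8 genes (Per1, Per2, Per3, Cry2, Nr1d1 and Dbp), against 25.4% of all genes tested. CON replicate 1 was the lowest for 5 of the 8 (Per1, Per2, Cry2, Dbp and Ciart), against 25.6% of all genes tested. Both held for 4 of the 8, against 11.5% of all genes tested. From CON replicate 1 to CON replicate 2 the log2 level differed by 1.56 for Per1, 1.01 for Dbp, 0.95 for Per2, 0.76 for Nr1d1 and 0.67 for Cry2, and by -0.13 for Nr1d2, which was highest in CON replicate 1. Each of these 6 was larger in size than the difference of that gene between the groups.

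Base composition moved with this order of the samples, and its part in the order was not tested beyond the correction given here. The transcripts of 7 evening-phase genes had a GC content from 52.2% (Ciart) to 61.6% (Dbp), whereas Nr1d2 had 41.8%, Arntl 48.2% and Cry1 51.6%. Over the 3438 genes with at least 1 FPKM and a GC content of at least 52% (a limit set with the GC content of the clock genes known), CON replicate 1 deviated from the gene means by a median of -0.38 (log2) and CON replicate 2 by 0.34. The median was -0.22 in PND replicate 2, 0.26 in PND replicate 3, 0.09 in PND replicate 1 and -0.03 in CON replicate 3. When the dependence on GC content was removed from each sample by a smooth fit, CON replicate 2 was the highest for 1 of the 8 evening-phase genes and CON replicate 1 the lowest for 3, and both held for 0. Over all genes tested these shares were then 19%, 18.6% and 5.74%, so they were smaller than before the correction too. The median SD within groups of the 10 clock genes went from 0.288 to 0.184 on the log2 scale, and it was smaller for 9 of them. Over the 12387 genes with at least 1 FPKM the median SD went from 0.245 to 0.203, and it was smaller for 65.7%. The SD of Dbp went from 0.490 to 0.2001 and that of Per1 from 0.612 to 0.250, whereas that of Cry1 went from 0.157 to 0.266.

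**Figure D4:**
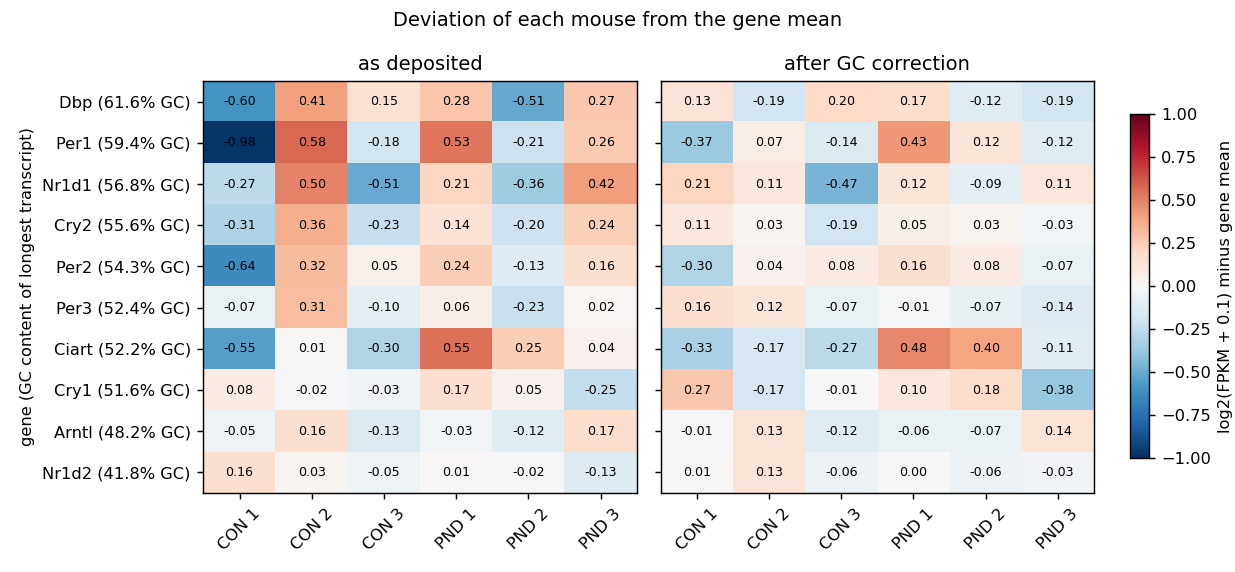
Log2(FPKM + 0.1) of each clock gene in each mouse minus the mean of the gene over the 6 mice, as deposited (left) and after GC correction (right), with genes ordered by GC content. On the left the genes of high GC content are low in CON replicate 1 (-0.98 for Per1) and high in CON replicate 2 (0.58 for Per1), and on the right these are -0.37 and 0.07.

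After GC correction the comparison of PND with CON gave a smaller SE for each clock gene except Cry1, and Ciart alone (1 of 10) had an unadjusted p below 0.05, against 4.32% of all genes tested in that fit. The log2 fold change of Ciart was 0.51 (SE 0.20, limma unadjusted p 0.0356), and its 3 PND samples still lay above its 3 CON samples, with -0.11 in PND replicate 3 and -0.17 in CON replicate 2 as the nearest deviations from the gene mean. Per1 had a log2 fold change of 0.29 (SE 0.19, limma unadjusted p 0.179) and Per2 one of 0.12 (SE 0.14, limma unadjusted p 0.417). Arntl was at 0.01 (SE 0.11) and Nr1d2 at -0.06 (SE 0.08). The evening-phase mean minus the Arntl-phase mean was then -0.22 ± 0.088 in PND and -0.34 ± 0.107 in CON (SD, n = 3), a difference of 0.12 that is larger than either SD, with ranges of -0.30 to -0.12 and -0.46 to -0.24 that overlapped. With Arntl alone set against the evening-phase genes other than Cry2, the corrected difference was 0.097. With Clock, Npas2 and Nfil3 added to the Arntl phase it was 0.115. Both were smaller than the SD of PND (0.243 and 0.184) and larger than that of CON (0.067 and 0.084).

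The other genes of the clock were read from a list of 23 by role, all of which passed the filter. None (0 of 23) had an unadjusted p below 0.05, against 3.13% of all genes tested, the groups were apart for 0, against 7.66%, and 11 had a log2 fold change above 0, against 52.4%. The number above 0 was 8 with median centring, 7 without PND replicate 1 and 14 without CON replicate 2. Without CON replicate 3 it was 6 of 22 tested. Clock, the partner of ARNTL, was at 10.7, 12.2 and 10.005 FPKM in PND and at 13.0, 9.58 and 12.3 FPKM in CON (log2 fold change -0.08, interval -0.44 to 0.29). Its order over the CON mice was thus the reverse of that of Per1 and Dbp. Clock has a GC content of 40.9%, and the 4343 genes with at least 1 FPKM and a GC content under 45% had the same order, with median deviations of 0.16 in CON replicate 1, 0.02 in CON replicate 3 and -0.10 in CON replicate 2. Npas2, which can take the place of CLOCK in the forebrain, was at 9.45, 9.22 and 10.4 FPKM in PND and at 9.54, 10.1 and 9.32 FPKM in CON (log2 fold change 0.00, interval -0.27 to 0.28). Nfil3, a repressor at D-box sequences opposed to DBP, was at 2.40, 3.31 and 2.52 FPKM in PND and at 1.91, 3.69 and 2.26 FPKM in CON (log2 fold change 0.10, interval -0.54 to 0.75).

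The largest differences of this list were those of Tspan4, Usp2 and Wee1. Usp2, a deubiquitinase and E-box target, was at 6.27, 4.32 and 5.04 FPKM in PND and at 2.49, 4.81 and 4.84 FPKM in CON (log2 fold change 0.40, SE 0.29), and without CON replicate 1 the log2 fold change was 0.093. Tspan4 was at no more than 0.301 FPKM in any sample and at 0 in PND replicate 2, and its log2 fold change of -0.50 (SE 0.60) rests on levels near the detection limit. Wee1, a cell cycle kinase and E-box target, was at 6.11, 6.26 and 4.50 FPKM in PND and at 8.52, 6.76 and 6.16 FPKM in CON (log2 fold change -0.34, SE 0.19, limma unadjusted p 0.115), and the groups overlapped. Bhlhe40, an E-box repressor singled out after its values were seen, was at 18.5, 13.5 and 17.2 FPKM in PND and at 11.2, 20.9 and 13.1 FPKM in CON. For Bhlhe40 the log2 fold change was 0.16 (limma unadjusted p 0.524), or 0.42 (limma unadjusted p 0.0458) once CON replicate 2 was left out. Without CON replicate 1 it was -0.024 (limma unadjusted p 0.922).

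Profiles over the 6 mice were then compared by the mean absolute difference of gene-centred log2 values, over genes with a symbol and at least 1 FPKM. Among 12322 genes the nearest to Dbp were Rnft2 (0.050), Cstb (0.051) and Ftsj1 (0.051). Of the other clock genes Per2 was nearest to Dbp, at place 252 with 0.129, followed by Bhlhe40 at place 676. Nearest to Arntl were Gm38357 (0.026), Slc37a3 (0.030) and Pfkp (0.034), and among clock genes Npas2 at place 79 (0.059) and Btrc, a subunit of the ligase that acts on PER proteins, at place 91. Cry1, the other Arntl-phase gene, was at place 5422 from Arntl. The evening-phase genes Per3 (541), Cry2 (2619) and Nr1d2 (2623) were nearer. Per2 (5570), Nr1d1 (8539), Dbp (9514), Ciart (9585) and Per1 (10293) were farther. The values compared had no GC correction, and with 6 samples these places are a description.

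Per1 is also induced by glucocorticoids and by neuronal activity, and genes with the same inputs were read beside it. Of 8 glucocorticoid-induced genes 3 had an unadjusted p below 0.05 and were higher in PND, against 1.73% of all genes tested, with Fkbp5 at 4.35, 3.62 and 3.58 FPKM in PND and 2.16, 2.43 and 2.17 FPKM in CON, Sgk1 with a log2 fold change of 0.95 (SE 0.17) and Cdkn1a with one of 0.81 (SE 0.30). The groups overlapped for the rest of the 8. Their log2 fold changes were -0.17 for Tsc22d3, -0.11 for Pdk4, 0.02 for Nfkbia, 0.05 for Errfi1 and 0.42 for Zbtb16. Of 10 immediate-early genes 2 were lower in PND at an unadjusted p below 0.05, Fos and Npas4, against 1.4% of all genes tested, with Fos at 2.18, 2.17 and 2.05 FPKM in PND and 3.73, 3.56 and 4.03 FPKM in CON. None of these 18 genes had an adjusted p below 0.05 (limma with Benjamini-Hochberg, 0 of 18, against 0.011% of all genes tested), and Per1 overlapped between the groups.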

How the data were processed

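The data were mRNA levels of 6 prefrontal cortex samples, 1 mouse each, grouped by their treatment label. The authors depleted ribosomal RNA, sequenced on an Illumina instrument, filtered reads with Seqtk, aligned them with HISAT2, counted fragments per gene with StringTie, scaled them by TMM and deposited FPKM, which are the values used here. The genome build, annotation and strand setting behind the FPKM were not given in the sources used here. The submitters' processing notes name Bowtie 0.12.2 and the builds mm8 and mm9 without a role. Symbols came from a mouse gene table (20866 of 21006 identifiers), and coordinates, exon lengths and GC content from GENCODE M21 on GRCm38.

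Groups were compared with limma 3.58.1 (R 4.3.3, lmFit and eBayes with intensity trend, two-sided) on log2(FPKM + 0.1) for the 18185 genes whose mean reached 0.1 FPKM, with Benjamini-Hochberg adjustment over all of them. Fold changes on this scale understate those of low genes, and intervals are 95% intervals from the moderated fit. The fit was tested on simulated data without the GC effect of these samples, so that test does not cover this effect. Nothing says that the mice came from separate cages or days, so p-values measure the spread between these samples. Depth was estimated from steps of FPKM times exon length, where 41.7% to 44.8% of low values lay within 0.05 of a whole fragment, so fragment numbers are estimates. GC correction subtracted from each sample a loess fit (span 0.5) of the deviation from the gene mean on GC content, made on genes with at least 1 FPKM. The genes named were the 10 clock genes, Clock, Npas2, Nfil3, those 3 of the 23 other clock genes with the largest differences and the nearest profiles. Bhlhe40 and the glucocorticoid and immediate-early genes were named after their values were seen, marker genes to check the tissue, and Thra and Sphk2 for their overlap. Another gene of the clock, outside these 23, is not reported here. Members, lists, promoters and alternatives were chosen with earlier results of these data known.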

Additional observations from a re-analysis of the deposited data

How the results depend on the processing

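The count of clock genes with an unadjusted p below 0.05 was 1 (Ciart) in the fit reported. Among the alternatives that kept all mice it was 0 with no filter on low values, with the replicate block and with GC correction plus the replicate block, 1 under the others, and 0 to 1 across the fits that left out a mouse. Under these 3 and all other alternatives, 0 of the 10 genes passed the cut-off or had an adjusted p below 0.05. The number of all genes past the cut-off was 241 (153 higher and 88 lower in PND, against 124 and 116 with quantile normalization), 25 when the pseudocount was 1, 59 among genes reaching 1 FPKM, and 235 to 388 when a mouse was left out (388 without CON replicate 2). Without PND replicate 3, 107 were higher and 128 lower in PND, and without CON replicate 2, 286 were higher and 102 lower. The evening-phase minus Arntl-phase difference ranged from -0.0091 to 0.32 when a mouse was left out. The replicate numbers come from the sample titles. Deviations of same-numbered samples from their group means correlated, across genes, at -0.049, -0.45 and 0.027, so the numbers were not taken as pairs. With the replicate block 226 genes passed the cut-off, and the p of Ciart was 0.0946.

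Signs of some differences changed, among them that of Per1, which was 0.39 in the fit reported. With GC correction Dbp moved to -0.089 and Npas2 to -0.044, with GC correction and the replicate block likewise to -0.089 and -0.044, and with median centring Npas2 moved to -0.010. When a mouse was left out the log2 fold change ranged from -0.0033 to 0.78 for Per1, -0.089 to 0.39 for Per2, -0.17 to 0.031 for Per3, -0.0049 to 0.33 for Cry2, -0.026 to 0.48 for Nr1d1, -0.27 to 0.29 for Dbp, -0.066 to 0.10 for Arntl, -0.11 to 0.095 for Cry1, -0.21 to 0.012 for Clock, -0.045 to 0.038 for Npas2, -0.089 to 0.37 for Nfil3 and -0.024 to 0.42 for Bhlhe40. The cause was not tested. Values that kept their sign ranged from 0.093 (without CON replicate 1) to 0.56 for Usp2, -0.14 (without CON replicate 3) to -0.034 (without CON replicate 1) for Nr1d2, -0.90 (without PND replicate 3) to -0.11 (without PND replicate 2) for Tspan4 (which fell under the filter without CON replicate 3), and -0.44 (without CON replicate 3) to -0.19 (without PND replicate 3) for Wee1. With 3 mice a group, an interval that includes 0 does not show that a gene was unchanged, and changes inside it cannot be told from 0 here.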
